A study of Mus musculus with 4 samples.

Results

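The ErbB receptors and their EGF-like ligands were followed in a tumorigenic and a nontumorigenic subline of mouse neural stem cells. The family was given as 10 genes: the receptors Egfr, Erbb2, Erbb3 and Erbb4 and the ligands Hbegf, Areg, Ereg, Tgfa, Btc and Nrg1. Of these 10 genes, 9 had a probe set named for them, 20 probe sets in all out of 45101 on the array, while Areg had none and is not analysed here. The probe set with the largest average signal stood for each gene, and the other probe sets served as a check. The array held 18193 genes with a named probe set.

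The samples were 2 arrays of the tumorigenic subline, labelled glioma-initiating cell-like (GIC), and 2 of the nontumorigenic subline, labelled non-GIC. All 4 shared the same origin and genotype, being neural stem cells from the telencephalon of p53-/- C57BL/6 embryos at day 14.5. They were electroporated with pCMS-EGFP-HRasL61 and pBabe-neo, selected in neomycin at 0.5 mg/ml and sorted for green fluorescence, so the non-GIC cells carried the oncogene too. No untransfected cells were analysed here. The listed culture additives included PDGF at 10 ng/ml, bFGF, insulin at 10 µg/ml and forskolin at 5 µM, and EGF was not among those listed. Each array's description begins with its own code, whose meaning is not given. The labels do not say whether a subline was 1 clone or whether its arrays came from separate cultures, so p-values cover the spread among these arrays alone, and part of that spread may be technical. Any other difference between the sublines cannot be told apart from tumorigenicity.

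ErbB receptors are tyrosine kinases of the cell surface that signal as dimers, mainly through the Ras-ERK and PI3K-Akt cascades. EGF-like ligands are made as membrane-bound precursors, and proteases of the ADAM family release many of them. Hbegf, Areg, Ereg, Tgfa and Btc encode ligands of Egfr, some of which also bind Erbb4, whereas Nrg1 encodes a ligand of Erbb3 and Erbb4. Erbb2 has no known soluble ligand of its own and acts as the preferred dimer partner, and Erbb3 has little kinase activity. EGF is a standard mitogen for cultured neural stem cells, and Egfr marks activated stem cells and transit-amplifying progenitors of the mouse brain.

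The promoters of Egfr and Erbb2 are shown because these were the only receptors tested, and both genes lie on chromosome 11. Each window runs from 250 bases before to 50 bases after the annotated start (RefSeq, GRCm38.p6, plus strand). The Egfr window is chr11:16751953-16752252 and the Erbb2 window is chr11:98412234-98412533. Capitals mark matches, on either strand, to the TATA box (TATAAA), the GC box (GGGCGG), the CCAAT box, the cAMP response element (TGACGTCA) or the AP-1 site (TGANTCA).
Egfr: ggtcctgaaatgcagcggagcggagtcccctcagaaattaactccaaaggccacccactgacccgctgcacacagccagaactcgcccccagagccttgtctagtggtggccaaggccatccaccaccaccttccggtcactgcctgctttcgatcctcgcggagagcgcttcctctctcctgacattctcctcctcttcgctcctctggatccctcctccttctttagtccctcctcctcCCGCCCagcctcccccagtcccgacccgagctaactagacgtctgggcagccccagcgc
Erbb2: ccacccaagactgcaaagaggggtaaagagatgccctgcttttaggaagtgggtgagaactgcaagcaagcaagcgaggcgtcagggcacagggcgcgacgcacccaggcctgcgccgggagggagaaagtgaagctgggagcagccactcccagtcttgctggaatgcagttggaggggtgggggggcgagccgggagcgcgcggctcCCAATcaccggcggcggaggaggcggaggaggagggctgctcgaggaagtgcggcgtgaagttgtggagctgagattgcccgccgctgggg

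The Egfr window held 1 match to the GC box GGGCGG, on the reverse strand and beginning 9 bases before the start. The Erbb2 window held 1 CCAAT match, beginning 41 bases before the start. A GC box match was present in 35.7% and a CCAAT match in 37.4% of the 32851 promoters of the same length, and a match is a description of the letters only. No matches overlapped in these 2 windows. Their G+C content was 62.3% for Egfr and 66.0% for Erbb2, against a median of 52.7% over all promoters. Promoters of 6 of the 10 family members are described here, and chromosome 18, which holds Hbegf, was left out of this step. Those of Erbb4 and Btc held none of the 5 motifs, that of Tgfa held 2 GC boxes, and that of Areg held 2 GC boxes, 1 TATAAA and 1 cAMP response element TGACGTCA. TATAAA was found in 13.6%, TGACGTCA in 1.79% and the AP-1 motif TGANTCA in 7.81% of all promoters.

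The deposited values are signals on a log2 scale, with array medians of 6.58 to 6.63, and a difference of 1 is a doubling. Signals of different probe sets cannot be set against each other, because each has its own probes. Genes entered the test when 2 or more arrays exceeded a filter level of 5.97, below which 40% of all values fell, and 13366 genes did so. Of these, 257 (1.92%) passed limma's moderated test at an adjusted p of 0.05, with 165 (1.23%) higher and 92 (0.688%) lower in GIC. With 2 arrays a subline, precision is limited throughout.

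None of the 7 family members that could be tested passed (0 of 7, against the 1.92% of all genes). They were the receptors Egfr and Erbb2 and the ligands Hbegf, Ereg, Tgfa, Btc and Nrg1. At an unadjusted p under 0.05 there was 1 of the 7, Egfr, beside 17.9% of all genes. The median log2 fold change (GIC minus non-GIC) of the 7 was 0.03, beside -0.01 over all tested genes. No overlap between GIC and non-GIC arrays was seen for 3 of the 7, beside 50.4% of all tested genes. Egfr lay lower in GIC, as 24.9% of all genes did without overlap, and Hbegf and Btc lay higher, as 25.5% did.

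**Figure D1:**
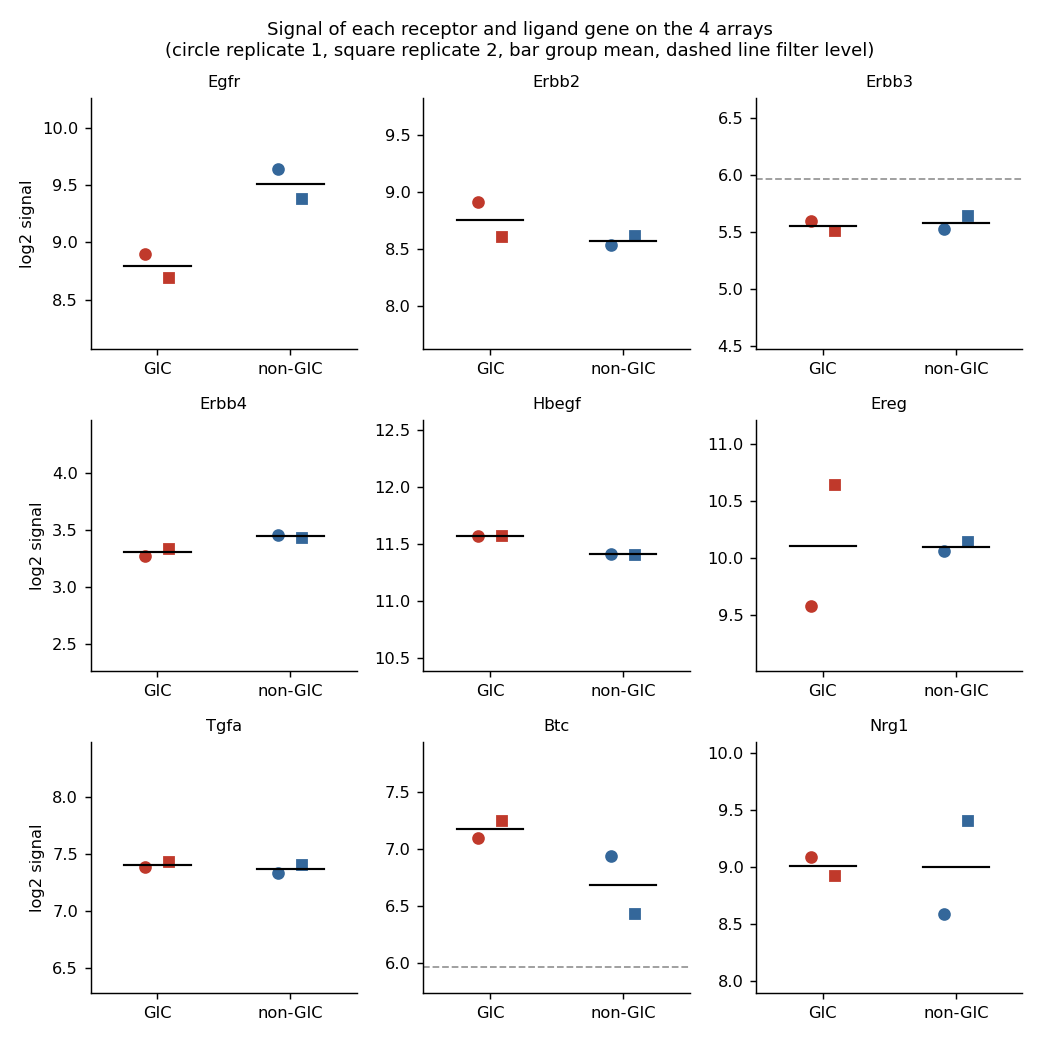
Log2 signal (vertical axes, each spanning the same number of log2 units) of the 9 ErbB family genes with a probe set on the GIC and non-GIC arrays. Circles are replicate 1, squares replicate 2, bars group means, and the dashed line is the filter level of 5.97 where it falls in view. Egfr, Hbegf, Btc and Erbb4 separate the groups, as 50.4% of all tested genes do. The Ereg signals of GIC lie on either side of those of non-GIC, and Erbb3 and Erbb4 lie under the filter level on all 4 arrays.

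Egfr, the receptor shared by most of these ligands, had the smallest p of the family. Its signal was 8.90 and 8.69 on the GIC arrays, against 9.64 and 9.38 on the non-GIC arrays. Both GIC arrays lay below both non-GIC arrays. The log2 fold change was -0.71 (SE 0.19, 95% interval -1.20 to -0.23, limma adjusted p = 0.161), a signal 1.64 times as high in non-GIC. The difference was larger than the gap of 0.21 between the GIC arrays and of 0.25 between the non-GIC arrays, but it did not pass the threshold over all genes. In bulk RNA, fewer cells with a transcript and less of it per cell cannot be told apart.

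The 7 Egfr probe sets fell into 2 patterns. A larger difference than on the probe set chosen for the gene was seen on 3 of them, and nearly none on another 3. Probe set 1424932_at had 7.88 and 7.39 in GIC, against 9.43 and 8.92 in non-GIC. Probe set 1435888_at had 7.87 and 7.21 in GIC, against 9.04 and 8.72 in non-GIC. Probe set 1451530_at had 7.50 and 7.16 in GIC, against 8.85 and 8.29 in non-GIC. On all 3, both GIC arrays lay below both non-GIC arrays, as on 26.1% of all probe sets tested, and in each subline replicate 2 lay below replicate 1.

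With every probe set fitted as its own feature, the log2 fold changes were -1.54 for 1424932_at (95% interval -2.25 to -0.83, adjusted p = 0.0850), -1.34 for 1435888_at (-2.07 to -0.62, adjusted p = 0.114) and -1.24 for 1451530_at (-1.90 to -0.58, adjusted p = 0.110). The signal in non-GIC was 2.91, 2.54 and 2.36 times that in GIC on these probe sets. Of the 24100 probe sets tested in this way, 1.70% passed, 1.04% in the upward and 0.660% in the downward direction, and none of the 14 family probe sets tested did. At an unadjusted p under 0.05 there were 4 of the 14, all of Egfr, beside 17.7% of all probe sets. A difference of at least 2-fold downward was found in 2.24% of all probe sets, and on 3 of the 6 Egfr probe sets tested. Probe sets of 1 gene are repeated readings of the same 4 arrays and not independent, so these shares are a description only.

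The other 3 probe sets were nearly equal in the sublines. Probe set 1432647_at had 6.67 and 6.66 in GIC, against 6.66 and 6.62 in non-GIC, a difference of 0.03 (95% interval -0.27 to 0.33). Probe set 1454313_at had 7.41 and 7.40 in GIC, against 7.50 and 7.34 in non-GIC, a difference of -0.01 (95% interval -0.37 to 0.35). These intervals do not hold the difference of -0.71 of the chosen probe set. Probe set 1457563_at lay between 3.30 and 3.61 on all 4 arrays, under the filter level. The annotation places 1432647_at and 1454313_at on the same sequence record, and 1424932_at and 1451530_at on another shared record. RefSeq lists 2 curated Egfr transcripts, and the mouse locus is known to yield shorter transcripts for secreted receptor forms. Which transcript each probe set reads was not analysed here.

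**Figure D2:**
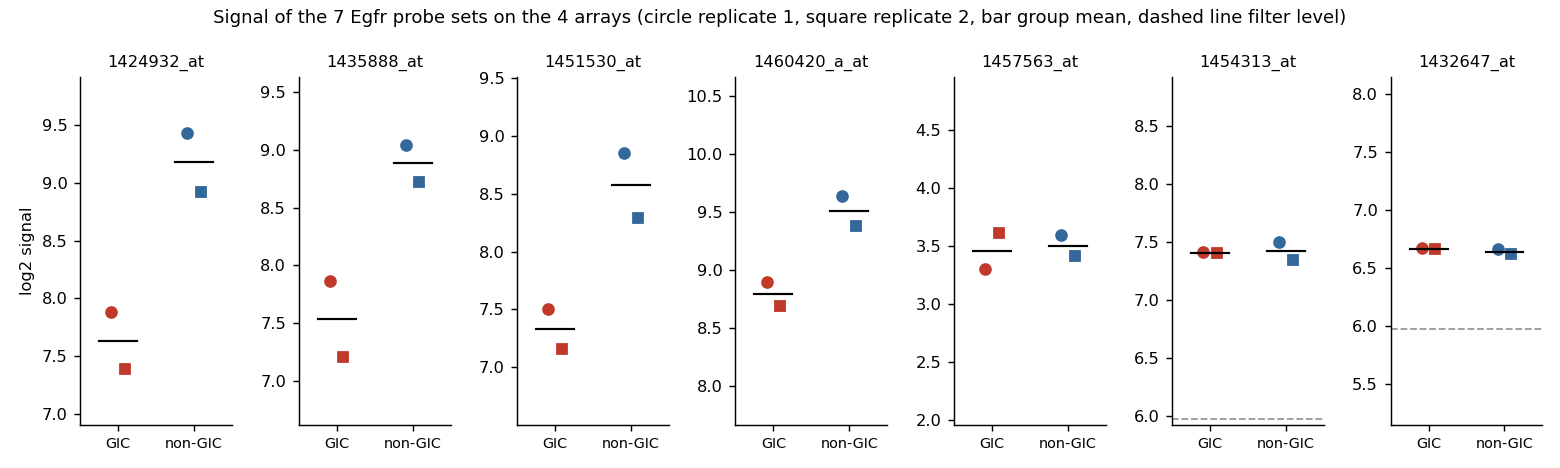
Log2 signal (vertical axes) of the 7 Egfr probe sets on the GIC and non-GIC arrays, ordered by their difference, with symbols, bars and dashed line as in the plot of the family genes. On 1424932_at, 1435888_at, 1451530_at and 1460420_a_at both GIC arrays lie below both non-GIC arrays, by -0.71 to -1.54 on average, and the other 3 probe sets differ by -0.04 to 0.03.

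The genes nearest to the Egfr profile over the 4 arrays, by Euclidean distance between centred log2 signals among 13365 other genes, were Itgal (distance 0.030), Renbp (0.060), Irf1 (0.067), Septin9 (0.085) and Mgat4b (0.085). Their log2 fold changes lay between -0.77 and -0.66, with adjusted p from 0.112 to 0.180. With 4 arrays many genes have a like profile, so this is a description only.

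Erbb2, the ligandless partner receptor, was close to equal in the sublines. Its signal was 8.91 and 8.60 in GIC, against 8.53 and 8.61 in non-GIC. The groups overlapped, since GIC replicate 2 lay just under non-GIC replicate 2. The difference was 0.18 (SE 0.18, 95% interval -0.29 to 0.65, adjusted p = 0.661), so the interval allows a GIC signal between 0.819 and 1.57 times that of non-GIC.

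Erbb3 and Erbb4, the neuregulin receptors, lay under the filter level on every array and were not tested. Erbb3 had 5.60 and 5.51 in GIC, against 5.53 and 5.64 in non-GIC, on the chosen probe set. Its other probe set, 1434606_at, had 5.57 and 5.37 in GIC, against 5.25 and 5.30 in non-GIC. Erbb4 had 3.27 and 3.33 in GIC, against 3.45 and 3.43 in non-GIC. Detection calls were not used here, so neither receptor is called absent, and at this signal level a difference between the sublines may not be measurable.

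Hbegf encodes the heparin-binding ligand of Egfr and Erbb4. Its signal was 11.57 on both GIC arrays, against 11.42 and 11.41 in non-GIC. The groups did not overlap, and the gap within each was at most 0.01. The difference was 0.15 (SE 0.14, 95% interval -0.22 to 0.52, adjusted p = 0.640). Its other probe set, 1418349_at, had 10.40 and 10.56 in GIC, against 10.54 and 10.30 in non-GIC, and there the groups overlapped (difference 0.06).

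Ereg encodes epiregulin, a ligand of Egfr and Erbb4. It had 9.58 and 10.64 in GIC, against 10.06 and 10.14 in non-GIC. One GIC array lay below and the other above both non-GIC arrays. The gap of 1.06 between the GIC arrays far exceeded the difference of 0.01 between the groups (SE 0.38, 95% interval -0.98 to 1.01, adjusted p = 0.989). The interval holds a GIC signal between 0.507 and 2.01 times that of non-GIC, so it allows a change of nearly 2-fold in either direction. Without GIC replicate 2 the difference was -0.52, and without GIC replicate 1 it was 0.54, both without passing the threshold.

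Tgfa, the gene of transforming growth factor alpha, had 7.39 and 7.43 in GIC, against 7.34 and 7.41 in non-GIC. The groups overlapped. The difference was 0.03 (SE 0.12, 95% interval -0.29 to 0.36, adjusted p = 0.915). On 1421942_s_at it was 0.12, and 1421943_at lay between 4.74 and 4.94, under the filter level.

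Btc encodes betacellulin, a ligand of Egfr and Erbb4. It had 7.10 and 7.25 in GIC, against 6.94 and 6.43 in non-GIC. Both GIC arrays lay above both non-GIC arrays, although the gap of 0.51 within non-GIC was as wide as the group difference. That difference was 0.49 (SE 0.21, 95% interval -0.05 to 1.03, adjusted p = 0.319), and did not pass. The other Btc probe set, 1421161_at, had 4.93 and 5.30 in GIC, against 4.80 and 4.51 in non-GIC, which is a difference of 0.46 under the filter level.

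Nrg1 encodes neuregulin 1, and RefSeq lists 12 curated transcripts for it. Its single probe set had 9.09 and 8.92 in GIC, against 8.59 and 9.40 in non-GIC. The non-GIC arrays lay on either side of both GIC arrays, with a gap of 0.81. The difference was 0.02 (SE 0.31, 95% interval -0.79 to 0.82, adjusted p = 0.982). Leaving out the first non-GIC array gave -0.39 and leaving out the second gave 0.42, neither of which passed. A single probe set cannot stand for all neuregulin isoforms.

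**Figure D3:**
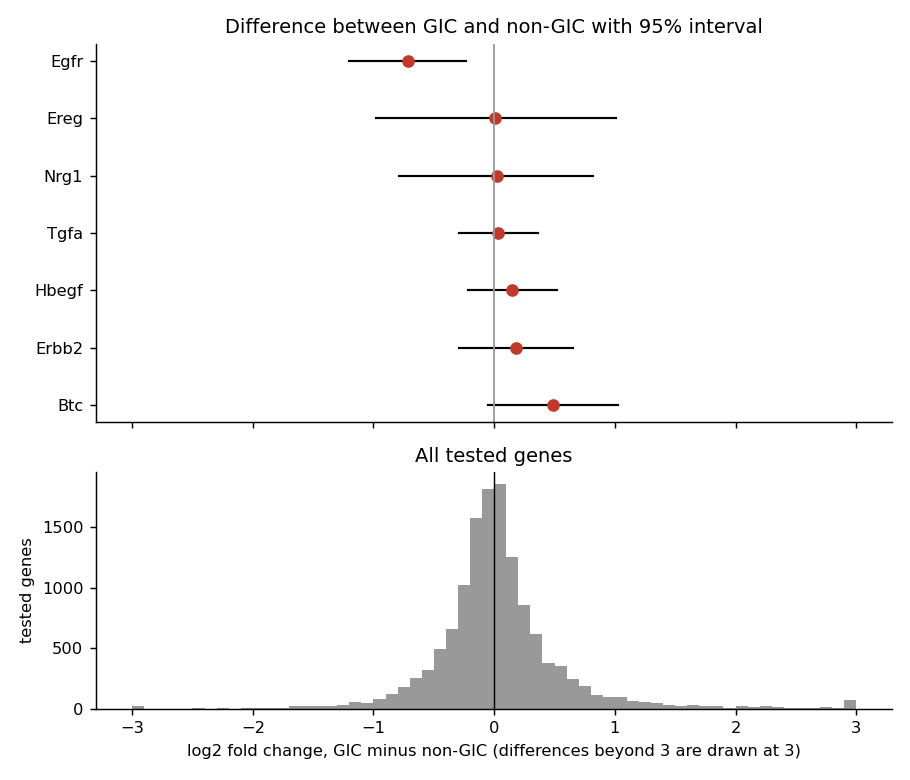
Upper panel, log2 fold change (GIC minus non-GIC, points) with the 95% interval of limma's fit (lines) for the 7 tested ErbB family genes. Lower panel, the number of tested genes (vertical axis) by log2 fold change, with differences beyond 3 drawn at 3. The interval of Egfr, -1.20 to -0.23, lies below 0, and those of the other 6 genes include 0.

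Across the 7 genes, the gap between arrays of 1 subline was larger than the difference between the sublines in 5, namely Erbb2, Ereg, Tgfa, Btc and Nrg1. Egfr and Hbegf were the exceptions. The difference of Egfr stayed negative with each array left out, from -0.58 without the first non-GIC array to -0.84 without the second. That of Btc ranged from 0.23 without the second non-GIC array to 0.74 without the first. No member passed with any array left out.

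**Figure D4:**
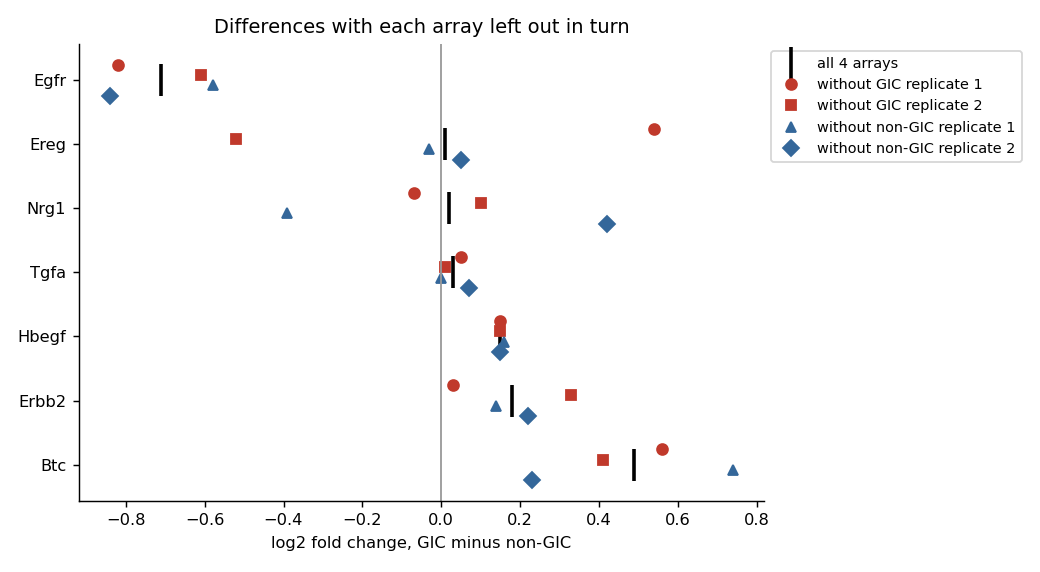
Log2 fold change (GIC minus non-GIC, horizontal axis) of the 7 tested ErbB family genes with all 4 arrays (black bars) and with each array left out in turn (red symbols for GIC, blue for non-GIC arrays). Egfr stays between -0.84 and -0.58 and Btc between 0.23 and 0.74, whereas Ereg runs from -0.52 to 0.54 and Nrg1 from -0.39 to 0.42.

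Genes that act with the receptors were taken from 6 lists, in which 113 of 124 genes were tested. The lists were chosen with earlier results of these data known, so the shares called in them are a description only. Among them 1 was higher and 3 were lower in GIC, or 3.54% called beside 1.92% of all genes, with a median log2 fold change of -0.07 beside -0.01. At an unadjusted p under 0.05 there were 29 of the 113, beside 17.9% of all genes. Leaving out the first GIC array, or the first non-GIC array, ended all 4 calls. The same held for the second non-GIC array, and there Grb10, an adaptor that binds receptor kinases, was called (log2 fold change 6.96).

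Of the other EGF-like ligands, Egf, Epgn and Nrg3 lay under the filter level on all arrays and 2 were tested, neither of which passed limma's test (1 at an unadjusted p under 0.05). The neuregulin gene Nrg4 had 6.29 and 6.38 in GIC, against 6.10 and 5.96 in non-GIC (difference 0.30, adjusted p = 0.261), near the filter level of 5.97. Its other probe set, 1457123_at, had 5.33 and 5.30 in GIC, against 5.36 and 5.37 in non-GIC, under the filter level (difference -0.05). Nrg2, another neuregulin gene, had 7.11 and 7.03 in GIC, against 7.34 and 7.12 in non-GIC (difference -0.16, adjusted p = 0.611), and 1457283_at, another of its probe sets, had 6.57 and 6.45 in GIC, against 5.95 and 5.88 in non-GIC (difference 0.59, adjusted p = 0.101 over the tested probe sets).

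None of the 11 sheddases and iRhoms passed limma's test (1 at an unadjusted p under 0.05, median -0.11). The smallest p values belonged to Adam12, a protease that can cleave the Hbegf precursor, and to Adam19, which can cleave neuregulin. Adam12 had 8.87 and 9.12 in GIC, against 9.68 and 9.61 in non-GIC, a difference of -0.65 (adjusted p = 0.168). Adam19 had 8.02 and 8.82 in GIC, against 6.07 and 7.85 in non-GIC, a difference of 1.46 (adjusted p = 0.337) with a gap of 1.78 within non-GIC.

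Of 12 tested co-receptors and ligand partners, 1 was higher, 1 was lower and 10 did not pass (median -0.37). The share called was 16.7%, beside 1.92% over the whole array. An unadjusted p below 0.05 was reached by 7 of the 12, beside 17.9% over the whole array. The syndecan gene Sdc4, which encodes a heparan sulfate proteoglycan, had 12.34 and 12.06 in GIC, against 10.20 and 10.47 in non-GIC, a log2 fold change of 1.86 (adjusted p = 0.0319). The other Sdc4 probe set, 1417654_at, showed none of this increase, with 8.52 and 8.76 in GIC against 8.71 and 8.81 in non-GIC. Met, a receptor kinase known to signal in concert with Egfr, had 9.77 and 10.23 in GIC, against 11.67 and 11.66 in non-GIC. It fell by 1.67 (adjusted p = 0.0437), and its 2 probe sets agreed, with -1.77 and -1.67.

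Of 30 inhibitors and turnover genes, 2 fell, none rose and 28 did not pass (median 0.08). The share called was 6.67%, beside 1.92% over the whole array. An unadjusted p below 0.05 was reached by 9 of the 30, beside 17.9% over the whole array. Ptprj, a receptor phosphatase known to act on Egfr, had 7.26 and 7.31 in GIC, against 8.84 and 8.68 in non-GIC, and fell by 1.48 (SE 0.15, adjusted p = 0.0301). Its 4 probe sets all pointed downward, from -1.48 to -0.16, and the mean over them was -0.92. Ptprj did not pass without GIC replicate 2 (adjusted p = 0.073). Sh3kbp1, an adaptor that works with Cbl in receptor internalization, had 10.27 and 10.56 in GIC, against 11.93 and 12.08 in non-GIC. It fell by 1.59 (SE 0.18, adjusted p = 0.0348), with all 4 probe sets between -1.68 and -1.57.

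None of the 37 tested adaptors and effectors passed limma's test (8 at an unadjusted p under 0.05, median -0.07), and none of the 21 immediate early and ERK feedback genes did (3 at an unadjusted p under 0.05, median -0.23). Among the adaptors, the PI3K catalytic subunit gene Pik3cb had 8.36 and 8.71 in GIC, against 9.78 and 9.60 in non-GIC (difference -1.15, adjusted p = 0.0784). The adaptor Shc3 had 6.08 and 6.17 in GIC, against 6.65 and 6.69 in non-GIC (difference -0.55, adjusted p = 0.0986). Among the feedback genes, the ERK phosphatase gene Dusp6 had 11.77 and 11.99 in GIC, against 11.23 and 10.72 in non-GIC (difference 0.91, adjusted p = 0.156). The immediate early transcription factor gene Jun had 12.50 and 12.74 in GIC, against 12.11 and 11.90 in non-GIC (difference 0.62, adjusted p = 0.169). Grb10, chosen after its values were seen, had 12.19 and 11.93 in GIC, against 5.10 and 9.68 in non-GIC, so that its level differed more within non-GIC than between non-GIC replicate 2 and GIC (adjusted p = 0.222).

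**Figure D5:**
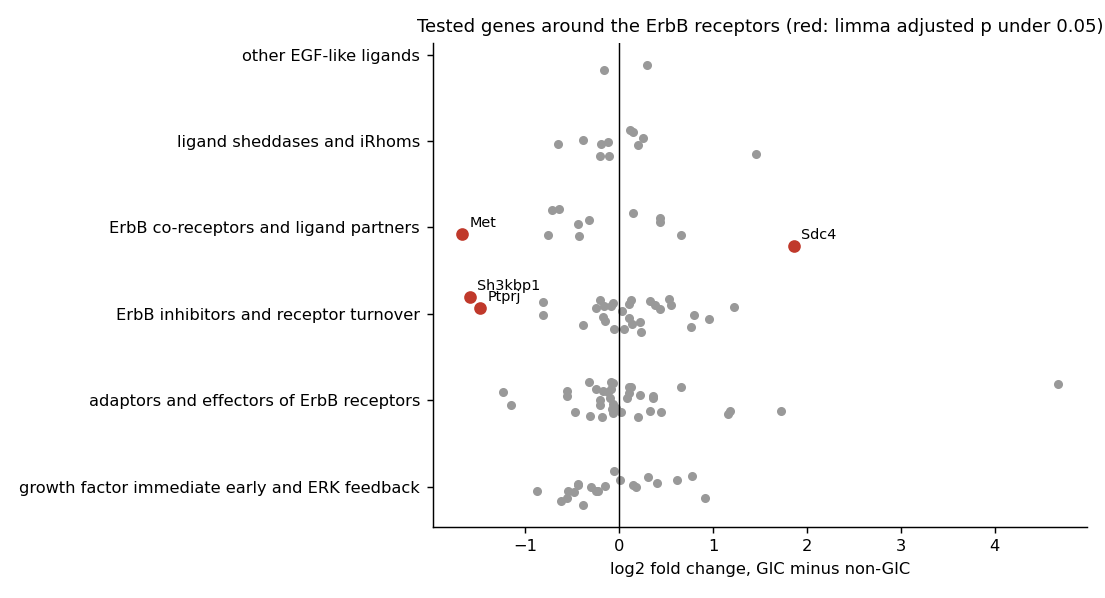
Log2 fold change (GIC minus non-GIC, horizontal axis) of the tested genes of 6 lists around the ErbB receptors, 1 point per gene, with vertical scatter for legibility. Red points are the 4 genes with an adjusted p under 0.05, Sdc4 higher and Met, Sh3kbp1 and Ptprj lower in GIC, and the point at 4.67 is Grb10.

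The labelled cell type was checked against 14 neural stem cell markers, of which 12 exceeded the filter level on 2 or more arrays and were tested. Sox1 and Prom1 lay under it on all arrays. Of the 12, 1 was higher and 2 were lower in GIC, beside 1.92% of all genes called. Cd24a, a surface glycoprotein, had 12.97 and 12.92 in GIC, against 11.81 and 11.64 in non-GIC. Nes, the intermediate filament of neural stem cells, had 9.17 and 8.97 in GIC, against 11.45 and 10.81 in non-GIC. Fabp7, a lipid-binding protein of radial glia, had 5.23 on both GIC arrays, against 6.58 and 6.89 in non-GIC. Its GIC signals lay under the filter level of 5.97. Fabp7 thus entered the test through the non-GIC arrays alone, and its call is a description only. None of the remaining tested markers of this list passed, and they went both ways. By log2 fold change, Sox9 (1.47) was higher in GIC. Notch1 (0.10), Slc1a3 (0.01), Vim (-0.01), Msi1 (-0.04) and Hes5 (-0.13) differed little. Sox2 (-0.90), Pax6 (-0.44) and Hes1 (-0.33) were lower. The mean signal of the neural stem cell list was 8.84 and 8.72 in GIC, against 8.85 and 9.11 in non-GIC. Mean signals of the fibroblast and mural list were 10.57 and 9.62 in GIC, against 10.29 and 10.19 in non-GIC. Of 7 microglia and leukocyte markers, 4 lay under the filter level on all arrays. So did 3 of 6 endothelial, 3 of 6 epithelial, 2 of 8 neuron, 1 of 7 astrocyte and 3 of 8 oligodendrocyte lineage markers with a probe set. In the lists of other cell types, 1 of 6 tested neuron markers and 1 of 7 tested fibroblast and mural markers were called, both lower in GIC. They were Map2, a microtubule protein of neurons, with 7.46 and 7.25 in GIC, against 9.50 and 9.79 in non-GIC, and the smooth muscle actin Acta2, with 13.30 and 12.79 in GIC, against 14.75 and 14.76 in non-GIC. The other tested markers of these lists did not pass and went both ways. By log2 fold change, the neuron genes Tubb3 (1.15) and Gap43 (1.33) were higher in GIC. Rbfox3 (0.02), Stmn2 (-0.18) and Syp (-0.24) differed little. Col1a2 (1.26), Col3a1 (0.77) and Dcn (0.52) of the fibroblast and mural list were higher. Col1a1 (-2.06), Tagln (-1.24) and Pdgfrb (-0.19) were lower. Pdgfra, a receptor of oligodendrocyte precursors, had 12.51 and 12.09 in GIC, against 9.68 and 10.41 in non-GIC, and did not pass (adjusted p = 0.0504). Its probe set 1421916_at, with 10.71 and 10.52 in GIC, against 8.39 and 8.88 in non-GIC, did (adjusted p = 0.0376 over the tested probe sets). A further Pdgfra probe set, 1438946_at, did not (difference 1.42, limma adjusted p = 0.0565). The other tested markers of the oligodendrocyte lineage list showed no such rise. Their log2 fold changes were 0 (Sox10), -0.08 (Cspg4), 0.13 (Mbp) and -0.35 (Cnp). Flt1 of the endothelial list had 9.37 and 9.18 in GIC, against 8.64 and 8.08 in non-GIC, and did not pass (adjusted p = 0.165). All 4 Flt1 probe sets were higher in GIC, from 0.92 to 1.77, and 1419300_at passed (limma adjusted p = 0.039 over the tested probe sets). The other tested endothelial markers, Kdr (-0.06) and Cldn5 (-0.16), were not higher. The called markers, Pdgfra and Flt1 were chosen after their values were seen. The part of cell makeup in the Egfr signals was not tested.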

How the data were processed

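RNA of 2 GIC and 2 non-GIC samples was labelled by Affymetrix One-Cycle in vitro transcription, per the labels' protocols. The deposited table holds 1 log2 signal per probe set and array. The log base and near-equal array quantiles were read from the values, while the steps of background correction, summarisation and normalization are unstated (not given in the sources used here). Values were used as deposited, and no 2 arrays were identical.

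Probe sets were named through the platform annotation, with symbols updated by Entrez identifier to GRCm38.p6 (34945 of 45101 had 1 symbol, 932 several, 9160 none, 64 were controls). Those with several or none were left out. Tests used limma 3.58.1 in R 4.3.3 with lmFit and a trended eBayes on the subline alone. Tests were two-sided and Benjamini-Hochberg adjusted over all tested genes, with 2 residual and 2.72 prior degrees of freedom. An exact permutation test of 1 gene cannot go below p = 0.33 here. Simulated data were used to check the fit. Figures used matplotlib 3.10.9.

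Named genes were all members, up to 6 called genes of each pathway list (where none was called, the 2 with the lowest p) and the 5 nearest profiles. By the rule, cell type markers were given as counts and mean signals, by name where a defining marker was at issue. The called markers, Pdgfra and Flt1 were named after their values were seen. The other tested markers of the neural stem cell, neuron, fibroblast and mural, oligodendrocyte lineage and endothelial lists were added later. Members and lists were chosen with earlier results of these data known. The alternatives were the replicate block, scaling, filter, probe set and variance choices, and leaving out each array.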

Additional observations from a re-analysis of the deposited data

How the results depend on the processing

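No ErbB family member passed under any of the 13 alternatives (0 of those tested in each). The Egfr difference stayed negative in all 13, from -1.54 when probe sets able to bind several transcripts were dropped to -0.58, and from -0.84 to -0.58 with an array left out. When represented by its other probe sets, a choice made after seeing the data, Egfr ranged from -1.54 to 0.03 (1432647_at), again with no pass. Differences near 0 turned sign: Tgfa was -0.01 with quantile normalization, Ereg and Nrg1 were -0.02 and -0.01 with median centring, and with an array left out Ereg ran from -0.52 to 0.54 (-0.03 without the first non-GIC array) and Nrg1 from -0.39 to 0.42 (-0.07 without the first GIC array). Sdc4 was -0.12 when such probe sets were dropped, and its other probe set represented it. With an array left out, 12 to 188 genes and 0 to 3 pathway genes were called, with fewer samples in the fit. Under the replicate block, 29 genes and 0 pathway genes were called, and under the crossed block, added after seeing the data because deviations of same-numbered arrays correlated at -0.32, 685 and 10. The labels do not say what the replicate numbers share. All other settings called 198 to 261 genes and 3 or 4 pathway genes. Low signal limits Erbb3, just under the filter level, and Erbb4, far below it.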
